A study of Mus musculus with 15 samples.

Results

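B cells given chromatin through their antigen receptor were compared with B cells given a TLR9 ligand alone. The comparison covered 6 of the 15 arrays of the study, chosen by their titles: 3 of AM-14 mouse B cells treated with PL2-3 and 3 of AM-14 B cells treated with CpG, with every gene of the deposited table. AM-14 B cells carry a transgenic receptor that binds self IgG, and all groups share it. PL2-3 is a monoclonal antibody to nucleosomes, which the labels list as a chromatin immune complex. CpG is, per the labels, the phosphorothioate oligodeoxynucleotide 1826. Beside them stand 3 arrays of AM-14 B cells kept in media and 3 of AM-14 B cells treated with F(ab')2 goat antibody to mouse IgM. The sources used here do not give doses, times of stimulation, strain background, sex or age, so a difference in the kind of stimulus and a difference in its strength cannot be told apart. Whether replicate arrays stand for different cultures or different animals is not in the labels, and p-values then measure only the spread between these arrays, which may be technical.

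The B cell receptor signals through Src-family kinases and Syk to phospholipase C, calcium and the ERK kinases, and these turn on immediate early genes such as the Egr and Nr4a factors. TLR9 is an endosomal receptor for DNA with unmethylated CpG, and it signals through MyD88 to NF-kB and to interferon regulatory factors, which drive genes of cytokines and of the antiviral interferon response. When an AM-14 receptor binds the antibody of a chromatin complex, it carries the DNA into the endosome, so PL2-3 meets both receptors, whereas CpG oligodeoxynucleotides reach TLR9 without the antigen receptor.

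Each array gave 45037 probe set signals, on the linear intensity scale of the deposited table, and each gene was read from its brightest probe set. Array medians lay between 291 and 496 with PL2-3 and between 263 and 396 with CpG. Replicates 1 and 2 of every group were labelled with the Enzo kit and replicate 3 with the Ambion kit, and the beta-actin control probe sets had a 5' over 3' ratio of 0.392 to 0.559 on the 4 Enzo arrays compared and 0.108 to 0.201 on the 2 Ambion arrays. The kit was therefore a term of the fit. The B cell markers Cd79a (12802 to 14020.1 with PL2-3, 8664 to 22039 with CpG) and Cd79b (6915 to 26797 and 18502 to 25153) gave high signals on all 6 arrays. Signals of other blood cells were present too: the summed signal of 12 myeloid markers was 64280 to 97071 with PL2-3 and 61427 to 114229 with CpG, and that of 6 erythroid markers was 40711 to 52552 and 39250 to 74502; their part in the results below was not tested. The summed ranges of the 2 groups overlapped for B cell, T cell, NK cell, myeloid, dendritic cell and erythroid markers. The B cell sums were 62965 to 109119 with PL2-3 and 101644 to 113480 with CpG. Of 9 B cell markers limma called 1 higher (Blk) and 1 lower (Ms4a1), and 6 had an unadjusted p under 0.05. By comparison, limma called 4.97% of all 12764 genes tested, and 2084 had an unadjusted p under 0.05. In NK cell, myeloid and dendritic cell markers limma called 0 members, with 1, 0 and 0 at an unadjusted p under 0.05. Eomes (-0.18 ± 0.45), S100a8 (-0.02 ± 0.32) and Flt3 (-0.18 ± 0.26), their brightest members in turn, did not pass the test. In these bulk samples fewer cells of a type and less RNA per cell cannot be told apart.

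Of 12764 genes tested, 634 (4.97%) differed between PL2-3 and CpG at a limma adjusted p under 0.05, 320 (2.51%) higher with PL2-3 and 314 (2.46%) lower. Only such a gene is called higher or lower here, and differences are log2 values, PL2-3 minus CpG, ± SE with n = 3 arrays per group. By size, 352 of the called genes differed by 2-fold or more, 169 higher and 183 lower. All 634 had the same sign in the 3 same-numbered pairs of arrays, and 550 had no overlap between the groups, against 14.5% of all genes tested. The genes were called on these same arrays, so both counts follow in part from the calls. The median difference over all genes was 0.06, and it was -0.11 with array medians equalized, with which 536 genes were called and 28.5% of them were higher, against 50.5%. Leaving out PL2-3 replicate 3 left 395 calls and leaving out CpG replicate 1 left 401. The higher genes then numbered 178 and 198, and they were 192 without CpG replicate 3, 204 without PL2-3 replicate 1 and 211 without PL2-3 replicate 2. The lower genes were 203 without CpG replicate 1. Against the same 3 media arrays, 31.8% of genes were called with PL2-3 and 36.1% with CpG.

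The largest difference was in Xcl1, which encodes the chemokine lymphotactin, an attractant of cross-presenting dendritic cells. Its signals were 20042, 27310.3 and 19359.7 with PL2-3 and 1205, 775 and 543 with CpG, 25-fold apart on the scale of log2(signal + 81.0) (4.64 ± 0.21, limma adjusted p = 1.41e-08). CpG did not pass the test against the media signals of 655, 673 and 456, and anti-IgM gave 11709, 14906 and 14302. Cst7, which encodes the cysteine protease inhibitor cystatin F, had signals of 7241, 6372 and 6388 with PL2-3 and 647, 629 and 449.6 with CpG (3.37 ± 0.21, limma adjusted p = 3.46e-07). Bex1, a brain-expressed X-linked gene, had 10789, 15309 and 6759 with PL2-3 and 887, 1096 and 781 with CpG (3.40 ± 0.18). In all 3 genes the lowest PL2-3 array lay above the highest CpG array, and CpG did not pass the test against media. Crabp2, a carrier of retinoic acid, was 2.92 ± 0.42 higher, with PL2-3 signals spread from 942 to 3087 and CpG signals from 122 to 289.7. Ahr, a transcription factor activated by dioxin-like and tryptophan-derived ligands, gave 12664, 14848 and 10064 with PL2-3 and 1673, 2412 and 1514 with CpG (2.70 ± 0.22, limma adjusted p = 5.98e-06). A second Ahr probe set gave 0.98. Il1r1, the signalling receptor of interleukin-1, was 2.51 ± 0.40 higher (789 to 1747 against 56.5 to 313). The remaining genes among the 12 largest were Tmem51 (2.68 ± 0.23), a membrane protein, Rab30 (2.57 ± 0.35), a small GTPase of the Golgi whose CpG mean lay under the pseudocount, Tacc2 (2.62 ± 0.67), a centrosomal coiled-coil protein, and Rgs16, Egr2 and S1pr3, described with their families. Set against media, Tmem51 did not pass the test with PL2-3 (0.28 ± 0.23) and was lower with CpG (-2.39 ± 0.23). Rab30 was lower than media with PL2-3 (-1.39 ± 0.35) and with CpG (-3.95 ± 0.35), and Tacc2 passed the test with neither. Tacc2 lost its call without CpG replicate 2, CpG replicate 3, PL2-3 replicate 1 or PL2-3 replicate 3, at an adjusted p of up to 0.192; the other 11 kept theirs under each array left out.

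**Figure D1:**
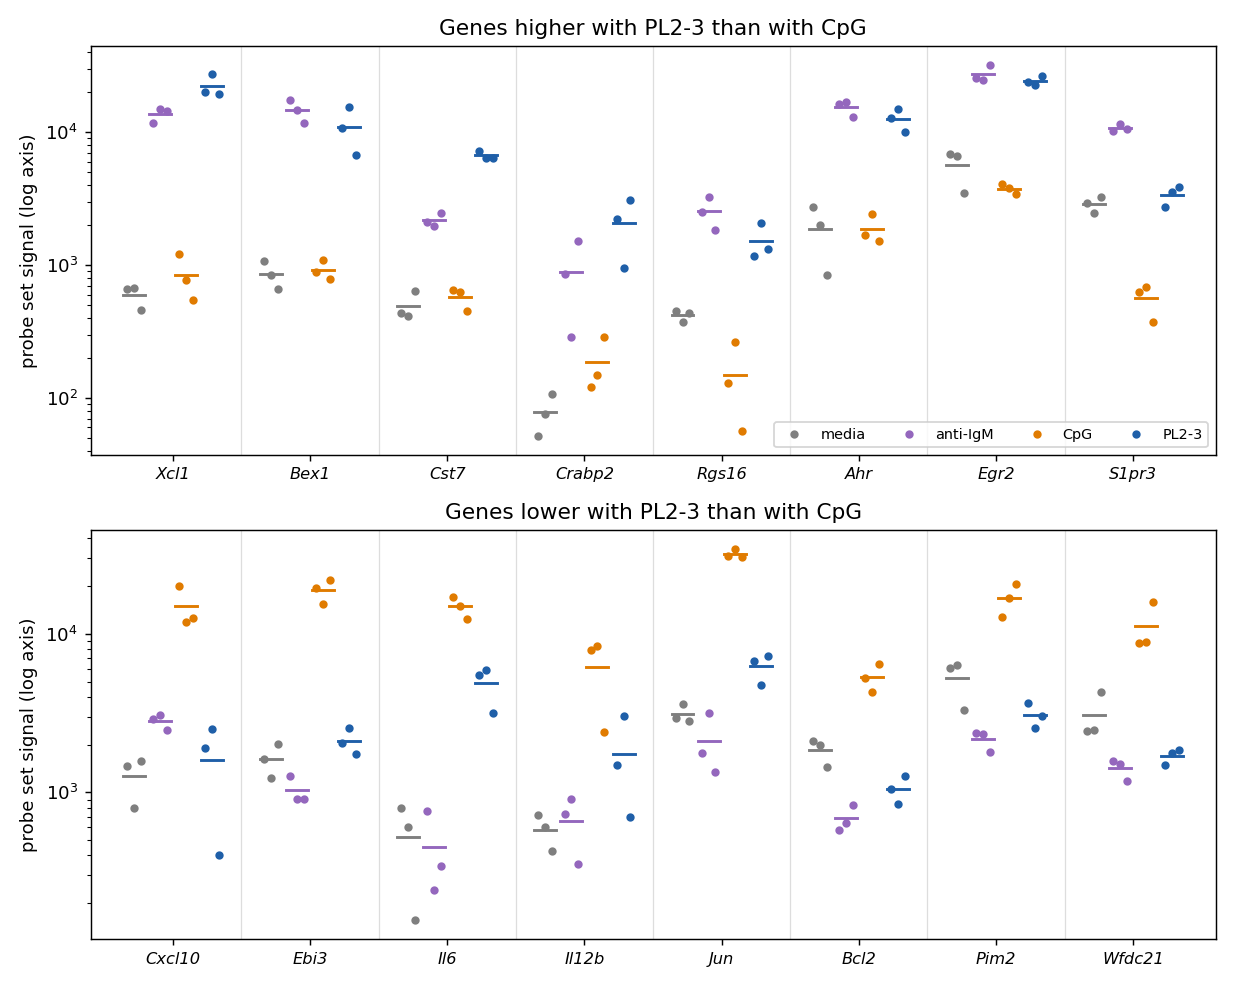
Probe set signals (log axis) of genes higher (top) and lower (bottom) with PL2-3 than with CpG, one point per array and a bar at the mean of 3 arrays, for media, anti-IgM, CpG and PL2-3. The Xcl1 points sit between 19359.7 and 27310.3 with PL2-3 and between 543 and 1205 with CpG.

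Immediate early transcription factors, which receptor signals switch on without new protein synthesis, were mostly higher with PL2-3. Of 24 members tested 13 were higher, 2 lower and 9 not called (62.5% called, against 4.97% of all genes). The list median was 0.86 against 0.06 for all genes. The zinc finger factor Egr2 had signals of 23659, 22702 and 26496 with PL2-3 and 4054, 3802 and 3409 with CpG (2.67 ± 0.21, limma adjusted p = 3.62e-06). Egr1 had 27525, 37661 and 12927 with PL2-3 and 6272, 6279 and 2489 with CpG (2.34 ± 0.15). Each group of Egr2 signals was tight and the groups were far apart, and for Egr1 the Ambion array was the lowest of both groups. Egr3 was 1.88 ± 0.22 higher, and so was Nab2, a corepressor that binds the Egr factors and is itself their target (2.10 ± 0.21). Set against media, the Egr family was not raised as a whole with PL2-3: Egr2 was 2.14 ± 0.21 and Egr1 0.68 ± 0.15 higher than in media, while Egr3 was -1.07 ± 0.22, lower than in media. With CpG, Egr1 (-1.66 ± 0.15), Egr3 (-2.95 ± 0.22) and Nab2 (-1.48 ± 0.21) were all lower than in media, and these values share the PL2-3 and CpG arrays with the comparison.

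The Nr4a orphan nuclear receptors, reporters of antigen receptor strength, were higher too: Nr4a3 by 1.46 ± 0.34, Nr4a1 by 0.89 ± 0.20 and Nr4a2 by 2.39 ± 0.28. Set against media, Nr4a2 did not pass the test with PL2-3 (0.23 ± 0.28) and was lower with CpG (-2.16 ± 0.28). For Nr4a2 the probe sets disagreed, with others that passed the filter from -0.88 to 1.43. Nr4a1 kept its call in 2 of 6 fits that left out 1 array and Nr4a3 in 1 of 6: both lost it without CpG replicate 1, CpG replicate 3, PL2-3 replicate 2 or PL2-3 replicate 3 (adjusted p up to 0.0978 and 0.135), and Nr4a3 also without CpG replicate 2. The AP-1 family split. Jun, its main dimer partner, had signals of 6746, 4788 and 7212 with PL2-3 and 31009, 34452 and 30776 with CpG (-2.36 ± 0.24, limma adjusted p = 2.67e-05), against 2932, 3597 and 2831 in media. Jun was 5.15-fold lower with PL2-3, with no overlap of the groups, and Ier5 (-0.58 ± 0.15) was the other lower member of the list, a call lost without any 1 of the 6 arrays (adjusted p up to 0.208). The AP-1 members Fosl2 (1.55 ± 0.19), Maff (1.47 ± 0.34) and Fos (0.75 ± 0.19) were higher. Of these Fosl2 kept its call under each array left out. Maff lost it without CpG replicate 1, CpG replicate 3, PL2-3 replicate 2 or PL2-3 replicate 3 (adjusted p up to 0.105), and Fos without any 1 of the 6 arrays (up to 0.145). Myc, which drives growth, did not pass the test: its signals were 33820.3, 42821 and 17417 with PL2-3 and 37330.0, 34453 and 21096 with CpG (-0.03 ± 0.18), and both stimuli were above media, at 2.10 ± 0.18 and 2.13 ± 0.18. Of the list, 8 members were called higher without CpG replicate 1, CpG replicate 3, PL2-3 replicate 2 or PL2-3 replicate 3, 12 on the Enzo arrays alone, 9 with array medians equalized and 7 without the labelling term.

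Genes induced by type I and type II interferon were lower with PL2-3. Of 32 interferon-stimulated genes tested 22 were lower (68.75%, against 4.97% of all genes called) and the other 10 not called. Their median was -1.67 against 0.06 over all genes, and 26 had every PL2-3 array below every CpG array, as 6.03% of all genes did. The differences of the 32 ran from -4.03 to 0.04. With 1 array left out 21 to 24 were called, and on the Enzo arrays alone 23. The promoters of Ifit3 and Ifit1, which encode antiviral proteins that bind viral RNA, and of the interferon-induced chemokine Cxcl10 are shown because these genes are among the largest differences and hold matches to the element through which type I interferon acts. Each holds the 250 bases before the RefSeq start site, 5′ to 3′, in lower case. Capitals mark matches to the core of the interferon-stimulated response element, which is GAAA, any 2 bases and GAAA again, on either strand, and in Cxcl10 also to the NF-kB site.
Ifit3, GRCm38.p6 chr19:34583279-34583528, plus strand: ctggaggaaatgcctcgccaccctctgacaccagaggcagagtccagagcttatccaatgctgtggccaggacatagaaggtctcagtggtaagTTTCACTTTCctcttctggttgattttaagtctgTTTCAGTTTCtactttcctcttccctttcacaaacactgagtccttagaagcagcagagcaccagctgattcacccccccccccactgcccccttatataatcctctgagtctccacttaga
Ifit1, GRCm38.p6 chr19:34640639-34640888, plus strand: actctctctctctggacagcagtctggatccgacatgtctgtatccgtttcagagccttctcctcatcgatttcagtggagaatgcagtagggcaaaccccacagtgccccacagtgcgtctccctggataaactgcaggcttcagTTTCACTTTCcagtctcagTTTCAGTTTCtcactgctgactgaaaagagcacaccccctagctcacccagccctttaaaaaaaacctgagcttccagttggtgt
Cxcl10, GRCm38.p6 chr5:92348890-92349139, minus strand: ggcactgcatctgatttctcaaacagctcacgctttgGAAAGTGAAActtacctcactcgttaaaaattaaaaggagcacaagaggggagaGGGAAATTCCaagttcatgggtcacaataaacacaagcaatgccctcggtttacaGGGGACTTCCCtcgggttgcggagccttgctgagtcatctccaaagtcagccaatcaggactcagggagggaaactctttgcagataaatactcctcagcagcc

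Counted from the start site, the element cores began at -156 and -122 in Ifit3, at -104 and -85 in Ifit1 and at -213 in Cxcl10, where NF-kB sites began at -159, -104 and -103, the latter pair overlapping. Over the 10276 tested genes with a RefSeq promoter (GRCm38.p6, 300 bases, 250 before to 50 after the start), 3.63% held the core. It was held by 35 of 244 genes lower with PL2-3 (14.3%) and by 4 of 250 genes higher with PL2-3 (1.6%). In the interferon-stimulated list it was in 11 of 25 promoters, and among lower genes outside that list in 26 of 228 (11.4%). Those outside the list included the immunity-related GTPases Irgm1 (-1.84), Irgm2 (-1.84) and Igtp (-1.56), the RNA-activated kinase Eif2ak2 (-1.64), Tdrd7 (-2.34) and Lgals9 (-1.65). The lower genes Mx2, Ifit2, Usp18, Mx1, Xaf1 and Irf7 were not among the 35, for want of a match or of a promoter entry. Of 373 promoters with the core, 1 had a match that overlapped another of the motifs searched. A match is a description of the letters and not a shown binding site.

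Mx2, a dynamin-like GTPase that blocks viruses, had signals of 60.9, 48.7 and 70.7 with PL2-3 and 3401, 1543 and 2077 with CpG (-4.03 ± 0.38, limma adjusted p = 1.7e-05). The PL2-3 signals lay under the pseudocount of 81.0, so the size of this difference depends on it. Ifit3 had 39.3, 216 and 440.3 with PL2-3 and 3455, 1725 and 4024 with CpG (-3.49 ± 0.38), and Ifit1 986, 1103 and 473 and 8965, 3173 and 7723 (-2.79 ± 0.38). No array of PL2-3 reached the lowest CpG array in any of these 3 genes. Ifit2 (-3.03 ± 0.28), Usp18, the protease that removes the ubiquitin-like modifier ISG15 (-2.73 ± 0.38), the Ifit relative Ifit1bl1 (-2.68 ± 0.45) and Mx1 (-2.51 ± 0.32) were also among the 12 largest. Xaf1, an interferon-induced apoptosis factor, was -2.33 ± 0.28, and Irf7, the transcription factor that amplifies interferon, -1.89 ± 0.21. Of the other members, Gbp2 (-2.16 ± 0.42), Rsad2 (-1.83 ± 0.35) and Bst2, which tethers budding virus (-1.71 ± 0.28), were lower. Gbp2 lost its call without CpG replicate 1, at an adjusted p of 0.0616, and Ifih1, an RNA sensor, was the 1 member with a positive difference (0.04 ± 0.25, not called, and -0.13 with array medians equalized). Set against media, the same list had a median of 1.08 with CpG, with 22 members higher and 1 lower, and a median of -0.66 with PL2-3, with 2 higher and 13 lower. Anti-IgM without DNA had a median of 0.61, with 11 higher and 1 lower. For Ifit2 the media signals of 698, 1005 and 719.9 lay above all 3 PL2-3 signals of 268, 249.6 and 151 and below all 3 CpG signals of 3702, 1825 and 1951. Stat2, a component of the interferon-activated transcription complex, was -1.49 ± 0.27, Socs1, its feedback inhibitor, -1.60 ± 0.36, Socs3 -1.31 ± 0.17 and the receptor kinase Jak1 -0.71 ± 0.14. In the list of STAT factors, Janus kinases and SOCS inhibitors 5 of 20 were lower (25%, against 4.97% of all genes called). Its other members were not called, and 3 were lower without PL2-3 replicate 3 and 0 without the labelling term. Socs1 lost its call without CpG replicate 1, PL2-3 replicate 1 or PL2-3 replicate 3 (adjusted p up to 0.114). Among cytosolic DNA sensors and nucleases, 2 of 14 were lower (14.3%, against 4.97% of all genes called). They were Zbp1, a sensor of left-handed nucleic acid (-1.5 ± 0.24), and Ikbke, the kinase IKK-epsilon (-1.70 ± 0.34).

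**Figure D2:**
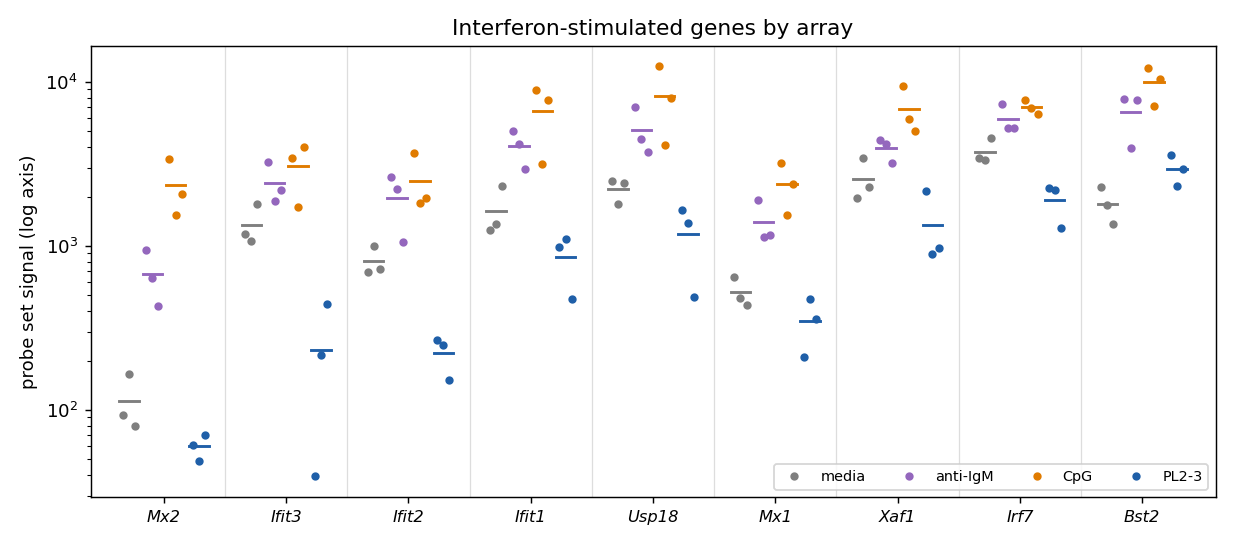
Probe set signals (log axis) of 9 interferon-stimulated genes, one point per array and a bar at the mean of 3 arrays, for media, anti-IgM, CpG and PL2-3. For Ifit2 the 3 PL2-3 points lie between 151 and 268, below the media points, and the CpG points between 1825 and 3702.

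Cytokine genes were lower with PL2-3 where they differed, with Tgfb1 as the exception. Of 26 interleukin, interferon and TNF family ligand genes tested 4 were lower, 1 higher and 21 not called, with a median of -0.22. Calls covered 19.2% of this list, against 4.97% of all genes. Ebi3, the shared subunit of interleukin-27 and interleukin-35, had signals of 2049, 2551 and 1746 with PL2-3 and 19460.2, 15364 and 22023 with CpG (-3.12 ± 0.22, limma adjusted p = 8.86e-07). With PL2-3 Ebi3 did not pass the test against its media signals of 1622, 1238 and 2029.5. Il6, which encodes a B cell and plasma cell growth factor, had 5487, 5946 and 3184 with PL2-3 and 17208, 14970.0 and 12485 with CpG (-1.63 ± 0.33, limma adjusted p = 0.00761), against 794, 608 and 155 in media. Both stimuli therefore gave more Il6 than media, by 3.2 ± 0.33 with PL2-3 and 4.83 ± 0.33 with CpG, and anti-IgM did not pass the test against media (-0.10 ± 0.33). The call for Il6 was lost without CpG replicate 3, at an adjusted p of 0.0643. Its promoter is shown for the NF-kB site in capitals, at -44 from the start site, and a role of this site in the difference was not tested.
Il6, GRCm38.p6 chr5:30012864-30013113, plus strand: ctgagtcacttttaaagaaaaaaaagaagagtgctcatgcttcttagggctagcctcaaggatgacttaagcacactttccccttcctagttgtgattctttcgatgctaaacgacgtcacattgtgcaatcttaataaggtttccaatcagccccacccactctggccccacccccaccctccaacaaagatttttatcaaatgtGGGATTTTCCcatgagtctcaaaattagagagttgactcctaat

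The NF-kB site, searched on both strands, was in 12.4% of all promoters, in 16.8% of those of higher genes and in 11.1% of those of lower genes. Il12b, the shared subunit of interleukin-12 and interleukin-23, was lower (-1.82 ± 0.28), but its groups overlapped: PL2-3 gave 1487, 3024 and 699 and CpG 7905, 8343 and 2399, with the Ambion array lowest in both. Il1b, an inflammatory cytokine, had 3017, 3189 and 5506 with PL2-3 and 12078, 10137 and 13201 with CpG (-1.62 ± 0.21). Il1b with PL2-3 did not pass the test against media (0.43 ± 0.21), whereas CpG raised it by 2.05 ± 0.21. Ifng, which encodes interferon gamma, had signals of 4076, 3618 and 34.6 with PL2-3 and 9730.0, 5232 and 1841 with CpG, and was not called (-1.94 ± 0.70, limma adjusted p = 0.16). A wide spread, with PL2-3 replicate 3 at 34.6, lay behind that SE. Csf2 (-1.60 ± 0.54) and Il2 (1.28 ± 0.44), the growth factors of myeloid cells and of T cells, did not pass the test either. Csf2 passed the signal filter in only 3 of the 6 fits that left out a PL2-3 or CpG array. Tgfb1, an inhibitory cytokine, was 1.09 ± 0.23 higher, a call lost without CpG replicate 1, CpG replicate 3 or PL2-3 replicate 3 (adjusted p up to 0.0738). Tnf was -0.17 ± 0.35 and not called, with 3037 to 11530.5 against 4028 to 10755.

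Among 13 chemokines, Xcl1 was higher and 2 were lower (23.1% called, against 4.97% of all genes). Cxcl10, a ligand of Cxcr3 on activated T cells, had signals of 1913, 2502 and 400.1 with PL2-3 and 20176, 11860.5 and 12623 with CpG (-3.43 ± 0.42, limma adjusted p = 0.000148). With PL2-3 Cxcl10 did not pass the test against media (0.05 ± 0.42), whereas CpG was higher (3.48 ± 0.42). Ccl5 had 6468, 3564 and 4202 with PL2-3 and 19227, 14433 and 17866 with CpG (-1.87 ± 0.23), and with PL2-3 it was lower than in media (-1.48 ± 0.23). Ccl3 and Ccl4, inflammatory chemokines, did not pass the test, at 0.41 ± 0.29 and 0.37 ± 0.25. Ccl3 was higher than media with either stimulus, with 52146 to 109130.0 for PL2-3 and 45502 to 65102 for CpG against 2555 to 13841 in media.

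NF-kB subunits, IkB proteins and targets leaned the same way. Of 20 tested 8 were lower with PL2-3 (40%, against 4.97% of all genes called) and the others not called. The list median was -0.40. Cd40, the receptor for T cell help, had 7313, 4469.5 and 10242 with PL2-3 and 22022, 17863 and 20919.5 with CpG (-1.53 ± 0.29). The nuclear IkB protein Bcl3 was -1.44 ± 0.20, the apoptosis inhibitor Birc3 -1.13 ± 0.18 and the kinase Map3k8, which links NF-kB to ERK, -1.30 ± 0.31. Map3k8 kept its call in 1 of 6 fits that left out 1 array, the one without PL2-3 replicate 2 (adjusted p up to 0.111 in the others). In the list, 4 members were called lower without CpG replicate 1, PL2-3 replicate 1 or PL2-3 replicate 3, 5 without CpG replicate 2 or CpG replicate 3, 4 on the Enzo arrays alone and 3 without the labelling term. For Cd40 PL2-3 did not pass the test against media (0.51 ± 0.29) and CpG did (2.04 ± 0.29), while Bcl3 and Birc3 did not pass it with CpG (0.07 ± 0.20 and 0.02 ± 0.18) and were lower than media with PL2-3 (-1.37 ± 0.20 and -1.11 ± 0.18).

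Among Toll-like receptors and their adaptors most members were not called, but 15.4% were, against 4.97% of all genes. Of 26 tested 1 was higher and 3 were lower, with a median of -0.12. Tlr9 itself, the sensor of both stimuli, did not pass the test (-0.05 ± 0.41), with signals of 396, 999 and 298 with PL2-3 and 761, 882 and 186 with CpG. Tlr1, a lipopeptide receptor, was -1.25 ± 0.18, Tlr7, the endosomal RNA receptor, -0.90 ± 0.23, and Unc93b1, the chaperone that takes Tlr7 and Tlr9 to the endosome, -0.58 ± 0.12. Cd180, a surface relative of Tlr4 on B cells, was higher (0.98 ± 0.23). Tlr1 kept its call under each array left out. Tlr7 lost it without CpG replicate 1, CpG replicate 3 or PL2-3 replicate 3 (adjusted p up to 0.194), Cd180 without CpG replicate 1, PL2-3 replicate 1 or PL2-3 replicate 2 (up to 0.11), and Unc93b1 without CpG replicate 1, CpG replicate 2, PL2-3 replicate 1 or PL2-3 replicate 2 (up to 0.0614).

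In the list of the BCL2 family and Pim kinases, which govern cell survival, 6 of 21 were lower with PL2-3 and the other 15 not called. Calls covered 28.6% of the list, against 4.97% of all genes, and 2 members were lower without the labelling term. The list median was -0.06 against 0.06 over all genes, and those lower included both protectors and an inducer of cell death. Bcl2, the founding inhibitor of apoptosis, had 1049, 840.1 and 1269 with PL2-3 and 5287, 4314 and 6440.3 with CpG (-2.26 ± 0.22, limma adjusted p = 1.77e-05). Pim2, a kinase that sustains growth and survival, had 3669, 2532 and 3012 with PL2-3 and 12829.7, 16792 and 20586 with CpG (-2.40 ± 0.24). Both genes were lower than media with PL2-3 (-0.77 ± 0.22 and -0.72 ± 0.24) and higher than media with CpG (1.49 ± 0.22 and 1.69 ± 0.24). Bcl2l1, which encodes BCL-XL (-0.96 ± 0.24), and Pim1 (-0.89 ± 0.19) were lower as well. So was Bcl2l11, which encodes the pro-apoptotic protein BIM (-0.93 ± 0.15), with signals of 39485, 26706 and 8203 with PL2-3 and 64158, 60432 and 15418 with CpG, where the Ambion array was the lowest of both groups. Bcl2l1 lost its call without CpG replicate 1, CpG replicate 3 or PL2-3 replicate 3 (adjusted p up to 0.178), and Pim1 without CpG replicate 1 or PL2-3 replicate 3 (up to 0.0889).

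**Figure D3:**
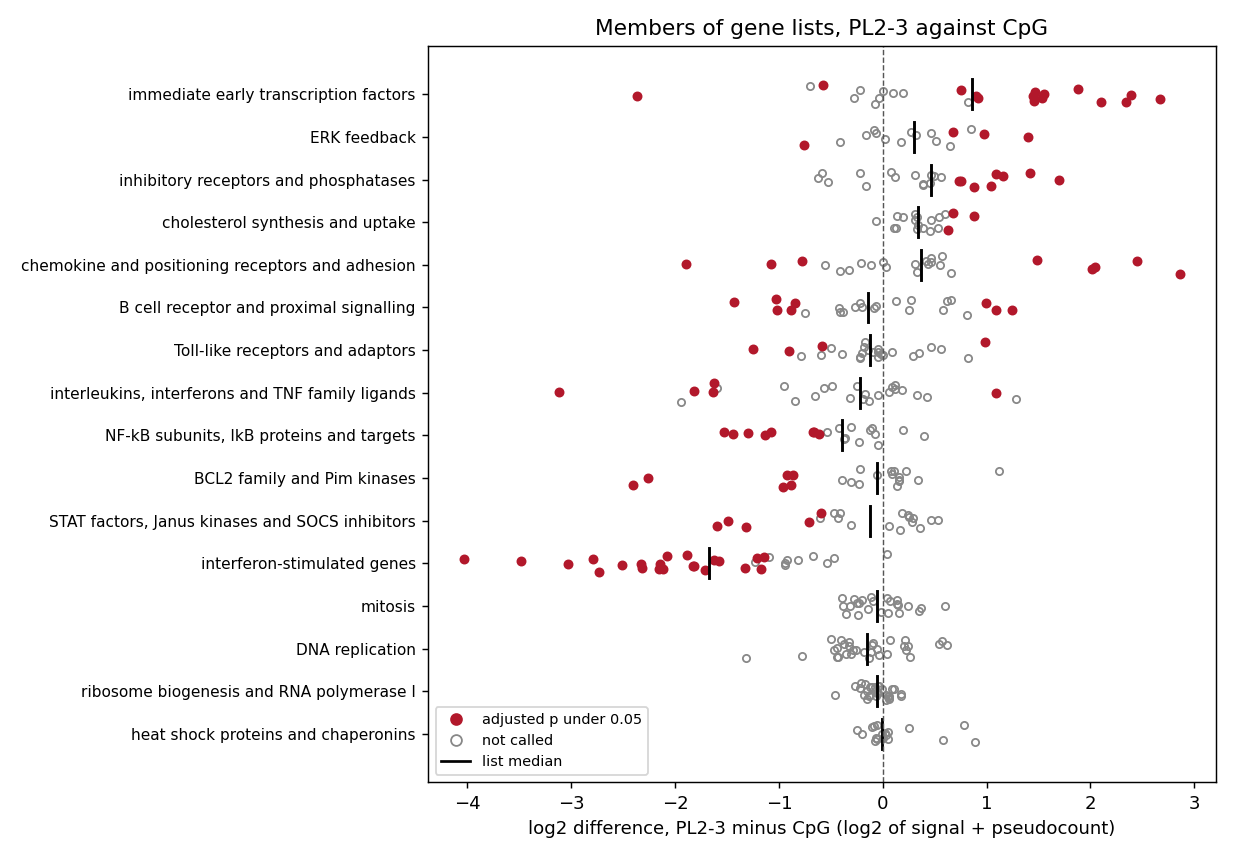
Each point is a gene of the list named on the vertical axis at its log2 difference, PL2-3 minus CpG. Red points passed the test, open points did not, and the black bar is the list median, which is -1.67 for interferon-stimulated genes and 0.86 for immediate early factors.

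Genes of receptor-proximal signalling moved in both directions. Of 24 B cell receptor and proximal signalling genes 3 were higher and 5 lower (3 lower without CpG replicate 2 or PL2-3 replicate 2). Those calls were 33.3% of the list, against 4.97% of all genes, and the list median was -0.14. The Src-family kinases Fyn (1.24 ± 0.25) and Blk (1.09 ± 0.15) and the scaffold protease Malt1 (1.0 ± 0.19) were higher. Rasgrp3, a Ras activator (-1.43 ± 0.23), Prkcb, the kinase PKC-beta (-1.03 ± 0.14), and Syk (-0.84 ± 0.18) were lower. Blk had 13976, 15358 and 17921 with PL2-3 and 7169, 8379 and 6495 with CpG, against 17764, 21221 and 20301 in media. The PL2-3 signals of Blk did not pass the test against media and the CpG signals were lower (-1.42 ± 0.15). Fyn lost its call without CpG replicate 3 or PL2-3 replicate 3 (adjusted p up to 0.0618), and Syk without CpG replicate 2, CpG replicate 3, PL2-3 replicate 1 or PL2-3 replicate 2 (up to 0.0727).

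Downstream of the receptor, the calcium, calcineurin and NFAT list had 3 of 24 higher (1 without CpG replicate 3, PL2-3 replicate 2 or PL2-3 replicate 3) and 3 lower (1 without CpG replicate 2, CpG replicate 3 or PL2-3 replicate 1). Together 25% of this list was called, against 4.97% of all genes. Nfatc1, the autoregulated NFAT factor, had 6545, 8501 and 6601 with PL2-3 and 3459, 3330.4 and 2617 with CpG (1.18 ± 0.15, limma adjusted p = 0.000165). Ppp3ca, a catalytic subunit of calcineurin, went the other way (-1.23 ± 0.15). Set against media, Nfatc1 did not pass the test with PL2-3 (0.15 ± 0.15) and was lower with CpG (-1.04 ± 0.15). The calcium sensor Ncs1 (1.49 ± 0.37) and the channel Orai1 (0.75 ± 0.16) were higher, but Ncs1 kept its call in 1 of 6 fits, the one without CpG replicate 2 (adjusted p up to 0.152), and Orai1 lost it without CpG replicate 3, PL2-3 replicate 2 or PL2-3 replicate 3 (up to 0.0686). In the ERK feedback list, of phosphatases and Sprouty proteins that ERK induces against itself, 3 of 16 were higher and 1 lower. Here too 25% was called, against 4.97% of all genes. Dusp4 had 10695, 9616 and 13171 with PL2-3 and 3615, 4591 and 4274 with CpG (1.40 ± 0.17, limma adjusted p = 0.000165), with no overlap. The other called members, Spry1 (0.97 ± 0.24), Rasa2 (0.67 ± 0.17) and Dusp16 (-0.76 ± 0.19), depended on single arrays. Spry1 lost its call without CpG replicate 1, CpG replicate 3, PL2-3 replicate 2 or PL2-3 replicate 3, Rasa2 without any 1 array but PL2-3 replicate 3, and Dusp16 without any 1 of the 6 (adjusted p up to 0.179, 0.167 and 0.145).

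Of 22 inhibitory receptors and phosphatases, which set the threshold of receptor signalling, 8 were higher with PL2-3 and 14 not called. Calls thus covered 36.4% of the list, against 4.97% of all genes, and the list median was 0.46. Inpp5d, the inositol phosphatase SHIP1, had 4103, 3329.9 and 4119.8 with PL2-3 and 1558, 2173 and 1599 with CpG (1.09 ± 0.16). Both stimuli had lower Inpp5d than media (13756, 12772 and 15009), CpG more so. Fcrla, an Fc receptor-like protein inside B cells, was 1.69 ± 0.23 higher, at 1251, 1242 and 5257 with PL2-3 and 289, 534 and 1144 with CpG, and far below its media signals of 10582, 9306 and 18982. Cd5 (1.42 ± 0.31), a negative regulator that is also a T cell marker, and Lag3 (1.16 ± 0.28), an inhibitory receptor, were higher. Lag3 was higher than media with both stimuli, by 2.31 ± 0.28 with PL2-3 and 1.15 ± 0.28 with CpG. Cd5 lost its call without CpG replicate 1, PL2-3 replicate 1 or PL2-3 replicate 3 (adjusted p up to 0.0646) and Lag3 without CpG replicate 2, CpG replicate 3 or PL2-3 replicate 3 (up to 0.166). In the list, 5 members were called higher without CpG replicate 1, 3 without CpG replicate 3, 2 without PL2-3 replicate 3, 2 on the Enzo arrays alone and 4 with array medians equalized. Cd5 was the only 1 of 10 T cell markers called.

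Receptors that position B cells and the Rgs proteins that turn them off held some of the largest differences. Of 24 chemokine and positioning receptor and adhesion genes 5 were higher and 3 lower (33.3% called, against 4.97% of all genes). The list median was 0.37. Rgs16, which ends G protein signalling by chemokine receptors, had 1177, 2063 and 1323 with PL2-3 and 129.8, 262 and 56 with CpG (2.86 ± 0.31, limma adjusted p = 4.93e-05), and its other probe sets gave 0.86 to 3.68. Its relatives Rgs2 (2.05 ± 0.18) and Rgs1 (1.49 ± 0.22) were higher too. S1pr3, a sphingosine phosphate receptor of marginal zone B cells, had 2724, 3531 and 3851 with PL2-3 and 631, 685 and 372 with CpG (2.44 ± 0.21). The PL2-3 signals of S1pr3 did not pass the test against media (0.20 ± 0.21), while the CpG signals were lower (-2.24 ± 0.21). Ccr6, the receptor for Ccl20, was 2.02 ± 0.33 higher, with 6214, 4911 and 24315 against 2081, 2343 and 2117. The Ambion array held the highest Ccr6 signal with PL2-3, and no PL2-3 array fell into the CpG range. Fcer2a, the low-affinity IgE receptor CD23 of follicular B cells, went the other way: 5239, 4731 and 3969.6 with PL2-3 and 16549, 18828 and 16777 with CpG (-1.89 ± 0.23, limma adjusted p = 0.000133). The integrin chain Itgal (-1.07 ± 0.20) and the follicle-homing receptor Cxcr5 (-0.78 ± 0.15) were lower as well. These calls held under each array left out.

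Surface molecules of activation were mixed, with 2 of 22 higher and 4 lower (2 lower without PL2-3 replicate 3). In all 27.3% of them were called, against 4.97% of all genes. The receptors for the survival factors BAFF and APRIL parted. Tnfrsf13c, the BAFF receptor, had 27021, 26491 and 32089 with PL2-3 and 10939.9, 11377 and 6820.3 with CpG (1.58 ± 0.19, limma adjusted p = 0.000129). Tnfrsf13b, the receptor TACI, had 13811, 15399 and 18393 with PL2-3 and 30478, 32856 and 39568 with CpG (-1.11 ± 0.14). In both genes the groups did not overlap, and both were higher than media with PL2-3 (0.66 ± 0.19 and 1.07 ± 0.14). With CpG, Tnfrsf13c was lower than media (-0.92 ± 0.19) and Tnfrsf13b higher (2.18 ± 0.14). The GPI-linked protein Ly6d (-1.76 ± 0.29) and the adhesion receptor Slamf1 (-1.49 ± 0.30) were lower, and Slamf1 lost its call without PL2-3 replicate 3 (adjusted p = 0.058). Ms4a1, which encodes the B cell marker CD20, had 13397, 9446 and 18953 with PL2-3 and 38914, 39706 and 44638 with CpG (-1.61 ± 0.16, limma adjusted p = 2.67e-05), and CpG did not pass the test against its media signals of 38626, 39553 and 41562.

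Of 27 regulators of B cell identity, the germinal centre and the plasma cell 2 were higher, Ahr among them, and 4 lower (2 without CpG replicate 2, PL2-3 replicate 1 or PL2-3 replicate 3). Calls covered 22.2% of these regulators, against 4.97% of all genes, and 0 were lower without the labelling term. The octamer factor Pou2f2 was -1.14 ± 0.23, the E protein Tcf3 -0.86 ± 0.17 and Bcl6, the master factor of the germinal centre, -0.80 ± 0.16. Pou2f2 lost its call without CpG replicate 2 or PL2-3 replicate 1 (adjusted p up to 0.0578) and Bcl6 without PL2-3 replicate 3 (0.0525). Irf4, which drives plasma cell differentiation, did not pass the test (0.13 ± 0.16). Other genes among the 12 lowest were the small GTPase Rnd3, the secreted protein Wfdc21 (-2.60 ± 0.22) and the mast cell immunoglobulin-like receptor Milr1 (-2.51 ± 0.38). Rnd3 had 411, 354 and 83.5 with PL2-3 and 2672, 3609 and 809 with CpG (-2.67 ± 0.47). It reached the array median on the 3 CpG arrays alone, so it passed the filter only through the group where it is high and had to differ, and it was not tested when a CpG array was left out. For Wfdc21, PL2-3 signals of 1494 to 1853 lay below the media signals of 2453 to 4316 and the CpG signals of 8757 to 15936 above them.

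A few metabolic and secretory genes were higher with PL2-3. Of the lists, cholesterol synthesis and uptake had 3 of 19 higher (median 0.34), amino acid transport and serine synthesis 3 of 20 (median 0.24), the unfolded protein response 3 of 21 (median 0.29) and glycolysis 2 of 17 (median 0.26), and the others were not called. These shares were 15.8%, 15%, 14.3% and 11.8% in turn, against 4.97% called over all genes. With array medians equalized each of the 4 lists had 1 higher member, and with 1 array left out they had 0 to 3, 2 to 4, 0 to 2 and 1. Pfkp, a phosphofructokinase of glycolysis, had 10593, 13328 and 10628 with PL2-3 and 4817, 5673 and 3838 with CpG (1.26 ± 0.16, limma adjusted p = 0.000205). Bcat1, which transaminates branched-chain amino acids, had 11089.7, 10086 and 13391 with PL2-3 and 5249, 3307 and 6821 with CpG (1.21 ± 0.19). Both Pfkp and Bcat1 kept their calls under each array left out, and so did the glutamine transporter Slc38a1 (0.81 ± 0.13). Srebf2, the master factor of cholesterol genes (0.88 ± 0.19), its target Cyp51 (0.68 ± 0.15) and the stress factor Ddit3 (0.96 ± 0.19) were higher. Srebf2 lost its call without CpG replicate 1, CpG replicate 3, PL2-3 replicate 2 or PL2-3 replicate 3 (adjusted p up to 0.0839), Cyp51 without CpG replicate 3 or PL2-3 replicate 2 (up to 0.0605) and Ddit3 without PL2-3 replicate 2 (0.0501). Hk1 (0.70 ± 0.18) and Pdia6 (0.65 ± 0.17) lost theirs without any 1 of the 6 arrays (up to 0.195 and 0.186) and Calr (0.52 ± 0.13) without any but CpG replicate 3 (up to 0.186). The sterol enzyme Sc5d (0.63 ± 0.16) and the transporter Slc1a5 (0.58 ± 0.15) each had another probe set of opposite sign and lost their calls without any array but CpG replicate 2 and any but PL2-3 replicate 2, in turn (adjusted p up to 0.162 and 0.201).

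MHC class II and peptide loading had 2 of 15 higher (13.3%, against 4.97% of all genes called). They were H2-Ab1 (0.69 ± 0.16) and H2-Eb1 (0.55 ± 0.14), the beta chains that present antigen to helper T cells. H2-Ab1 lost its call without CpG replicate 1, CpG replicate 3, PL2-3 replicate 1 or PL2-3 replicate 3 (adjusted p up to 0.163) and H2-Eb1 without any 1 of the 6 arrays (up to 0.198). In the lysosome and endosome list 2 of 21 were higher (5 without CpG replicate 2) and 1 lower, 14.3% against 4.97% of all genes. Psap, the precursor of the sphingolipid activator proteins, had 31242, 32979 and 31793 with PL2-3 and 12621, 20873 and 13819.7 with CpG (1.05 ± 0.20), and the proton pump subunit Atp6v0d1 was 0.76 ± 0.14 higher. Lgmn, an endosomal protease, was -1.15 ± 0.31, a call lost without CpG replicate 2, CpG replicate 3, PL2-3 replicate 1 or PL2-3 replicate 3 (up to 0.222). Among erythroid markers Epor was 1.02 ± 0.27, lost without any 1 of the 6 arrays (up to 0.16) and with the replicate number as a block.

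Genes of growth and division had a share of calls at or below the 4.97% of all genes. In ribosome biogenesis limma called 0 of 29 genes, with differences from -0.46 to 0.18 and a median of -0.05. Against media 28 of these 29 were higher with PL2-3 and 28 with CpG. Ncl, which encodes nucleolin, had 87635, 91819 and 68704 with PL2-3 and 92996, 82808 and 82763 with CpG (-0.07 ± 0.15). By limma the mitosis list had 0 of 24 called (median -0.06), DNA replication 0 of 32 (median -0.16) and heat shock 0 of 18 (median -0.01). Their brightest members were Mki67 (-0.35 ± 0.36), Pcna (-0.06 ± 0.11) and Hspa8 (-0.05 ± 0.14). At an unadjusted p under 0.05 the counts of members were 1 for ribosome biogenesis, 1 for mitosis, 8 for DNA replication and 3 for heat shock. Over all 12764 genes tested that count was 2084. Among G1 genes Rbl1, a retinoblastoma relative, was -1.01 ± 0.19, the only call in 22. In the quiescence list Il7r, the interleukin-7 receptor, was 1.41 ± 0.24 higher and Sesn3 -0.77 ± 0.15 lower, of 24 tested (8.33% called).

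Anti-IgM against media differs by receptor engagement without DNA and shares no array with PL2-3 against CpG, so the comparisons can be set side by side. Both came from 1 fit, in which a gene has the same estimate of spread and kit effect, so their calls are not independent. In anti-IgM against media 3212 genes (25.2%) were called, 1581 higher (12.4%) and 1631 lower (12.8%). Of the 320 genes higher with PL2-3 than with CpG, 135 were higher with anti-IgM (42.2% of the 320 and 8.54% of the 1581) and 40 were lower. Of the 314 genes lower with PL2-3, 140 were lower with anti-IgM (44.6% of the 314 and 8.58% of the 1631) and 26 were higher. Over all genes tested, the median difference of PL2-3 against CpG was 0.02 among those higher with anti-IgM, -0.05 among those lower and 0.08 among the rest. With each comparison fitted on its own arrays alone, 130 genes were higher in both, 134 lower in both and 59 in opposite directions. Without PL2-3 replicate 3 the genes higher in both numbered 86. The genes called in opposite directions, 40 and 26 here, summed to 66 and to 34 to 82 with 1 array left out, at 34 without CpG replicate 3, 37 without PL2-3 replicate 3, 42 without CpG replicate 1 or PL2-3 replicate 1 and 43 without anti-IgM replicate 1 or 3.

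Ranked by the smaller of their differences, the leading genes of both comparisons were Xcl1 (4.64 for PL2-3 against CpG, 4.35 for anti-IgM against media), Bex1 (3.40 and 3.97), Ahr (2.70 and 3.13) and Crabp2 (2.92 and 2.38), all higher. For Egr2 the anti-IgM signals of 25329, 24493 and 32212 overlapped the PL2-3 range of 22702 to 26496. Its promoter is shown as that of an immediate early gene high in both receptor-engaged groups, with the CArG box, where serum response factor binds, in capitals at -72 from the start site.
Egr2, GRCm38.p6 chr10:67537316-67537565, plus strand: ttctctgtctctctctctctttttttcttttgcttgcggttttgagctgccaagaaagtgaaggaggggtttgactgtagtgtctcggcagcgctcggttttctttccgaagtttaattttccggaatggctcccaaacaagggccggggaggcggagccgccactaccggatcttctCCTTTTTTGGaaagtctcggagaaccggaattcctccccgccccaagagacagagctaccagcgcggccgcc

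The CArG box was in 1.58% of all promoters, 2.4% of those of genes higher with PL2-3 and 3.69% of those of lower genes. The Egr site GCGTGGGCG was in 1.37%, 3.2% and 0.82%, the AP-1 site TGANTCA in 6.78%, 8.4% and 12.3%, and the cyclic AMP element TGACGTCA in 3.32%, 2.8% and 2.87%, each on both strands. Lower in both were Dennd3, an exchange factor for Rab GTPases (-2.46 and -1.67), the adhesion molecule Pecam1 (-2.16 and -2.05), Ly6d (-1.76 and -1.55) and the lipid receptor Gpr18 (-1.51 and -1.72). Dennd3 had 2516, 3150.2 and 2584 with PL2-3 and 14231, 16285 and 15810.0 with CpG, a wide gap with no overlap. Lower with PL2-3 but higher with anti-IgM were the antiviral genes Mx2 (-4.03 and 1.93), Bst2 (-1.71 and 1.77), Ifit1 (-2.79 and 1.28) and Mx1 (-2.51 and 1.27). Higher with PL2-3 but lower with anti-IgM were Susd3 (1.71 and -1.97), Fcrla (1.69 and -2.11), the mitochondrial enzyme Acss1 (1.42 and -2.15) and the adaptor Lax1 (1.35 and -1.71). All 4 of these were far lower with CpG than in media, from -4.25 for Fcrla to -3.58 for Acss1. Of them, Fcrla kept its PL2-3 against CpG call under each array left out. Susd3 lost it without CpG replicate 2, CpG replicate 3, PL2-3 replicate 1 or PL2-3 replicate 3, Acss1 without any but CpG replicate 2 and Lax1 without PL2-3 replicate 2 (adjusted p up to 0.202, 0.211 and 0.062).

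**Figure D4:**
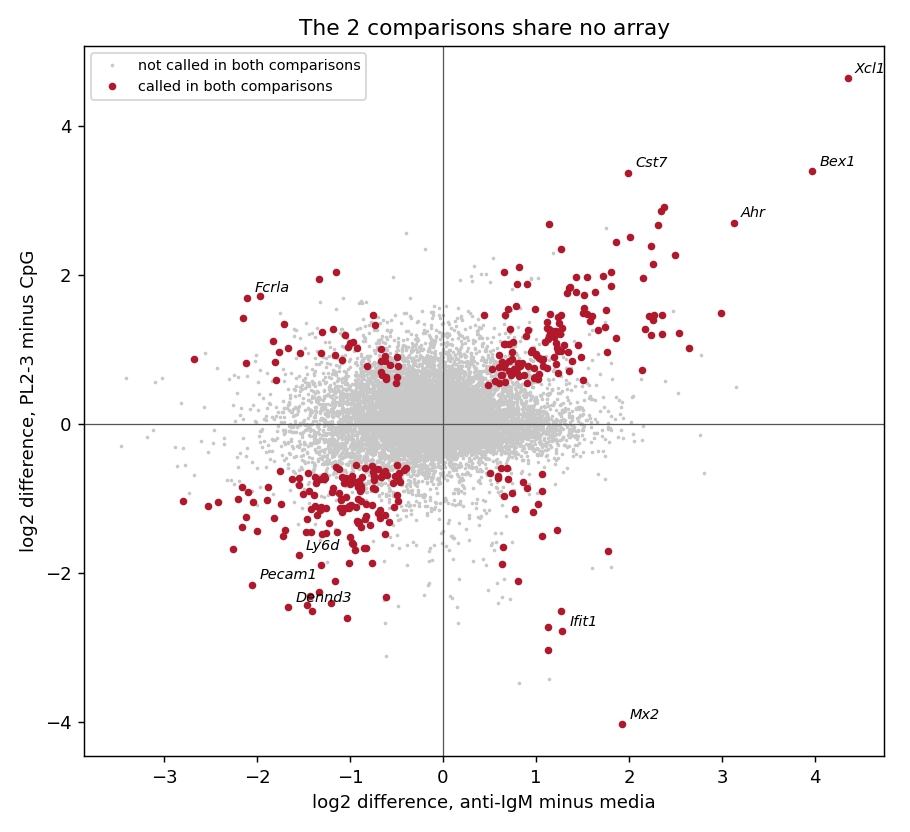
Each point is a gene at its log2 difference for anti-IgM minus media (horizontal) and PL2-3 minus CpG (vertical), and red points were called in both. Of the red points, 135 lie in the upper right and 140 in the lower left, with the antiviral genes Mx2 and Ifit1 in the lower right.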

How the data were processed

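RNA of AM-14 B cells was measured on 15 mouse expression arrays, 3 for each of 5 groups. The authors deposited 1 table of signals on a linear intensity scale, made with MAS5 per the submitters' processing notes; arrays share a trimmed mean of 1499.39 to 1499.92. Depth does not apply to arrays, and 3 arrays per group limit the precision. Of 45037 probe sets, 34945 had 1 gene symbol in the platform annotation, 932 several and 9160 none, and only the first were used (34741 matched RefSeq, 18193 genes). Control probe sets (64) were left out.

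Signals were taken as log2(signal + 81.0), the pseudocount being their 20th percentile. A gene was its brightest probe set, and was tested where it reached the array median on at least 3 of 12 arrays. limma 3.58.1 (R 4.3.3; lmFit, eBayes with an intensity trend, Benjamini-Hochberg over 12764 genes, called under 0.05) fitted media, anti-IgM, CpG and PL2-3 with the labelling kit as a term, leaving 7 residual degrees of freedom. Fold changes on this scale understate those of dim genes. An exact permutation test of 3 against 3 arrays could not go below p = 0.1. The anti-IgM+CpG arrays were left out of the fit because their beta-actin 5' to 3' ratios (0.105 and 0.193 on their Enzo arrays, 0.335 to 0.747 on the other Enzo arrays) and Xist signals stand apart, and all 15 arrays were an alternative. Same-numbered arrays deviated together (r over 0.1) in 18 of 18 pairs (r 0.133 to 0.703), and so did 9 of 36 other pairs. Replicate number and kit overlap, replicate 3 being the Ambion arrays. After the kit term 1 of the 18 same-numbered pairs had r over 0.1. That term makes what is left on the Ambion arrays cancel out, so pairing among the replicate 3 arrays could not show. Whether same-numbered arrays pair beyond the kit therefore cannot be told from these values. The main fit held no pairing term. On simulated data with 200 changed genes, 62% of 2-fold and 90% of 4-fold changes were called, with 10 unchanged genes called. The simulated noise was normal, independent between arrays and drawn with the spread that the fit estimated. These rates therefore do not cover outlying arrays or shared deviations between arrays.

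The comparison, its 34 gene lists (652 of 716 genes tested) and tests were chosen with earlier results of these data known. Genes were named by rule: the 12 largest called differences each way, up to 4 called members of each list (or its brightest member) and the 4 leading genes of each combination with anti-IgM against media, leaving out genes with opposite probe sets in the first and last. Chosen after their values were seen were Egr3, Nab2, Nr4a1, Nr4a3, Ier5, Fos, Fosl2, Maff, Myc, Fcer2a, Itgal, Cxcr5, Rgs1, Ifng, Csf2, Il2, Tnf, Tgfb1, Ccl3, Ccl4, Tlr9, Malt1, Syk, Pim1, Irf4, Xaf1, Irf7, Rsad2, Gbp2, Ifih1, Irgm1, Irgm2, Igtp, Eif2ak2, Tdrd7, Lgals9, Cd79a and Cd79b. Promoters came from RefSeq (GRCm38.p6; 10276 genes matched).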

Additional observations from a re-analysis of the deposited data

How the results depend on the processing

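Against 634 genes called, other scalings, pseudocounts, filters, probe set rules and fits of the compared groups alone gave 511 to 646. Arrays shifted to the same median gave 153 higher genes. Without the labelling term 242 genes were called, 101 higher and 141 lower, with 51 higher and 47 lower in both comparisons and 11 in opposite directions. On the Enzo arrays alone 465 genes were called, 383 of them among the 634, and 22 were in opposite directions. Without an intensity trend 407 genes were called, 192 higher, with 79, 90 and 35 shared or opposite. With all 15 arrays 421 were called, 210 higher, with 81 lower in both and 26 opposite. A 2-fold minimum kept 352, 169 higher and 183 lower, with 65, 48 and 21. The causes were not tested. With 1 array left out, 395 to 837 genes were called, 178 to 448 higher and 203 to 389 lower, with 86 to 175 higher in both, 97 to 154 lower in both and 34 to 82 opposite. With the replicate block in place of the kit, 675 genes were called, 347 higher and 328 lower, and Epor was the only named gene to lose its call.

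Of 122 named called genes, 121 were tested with each of the 6 PL2-3 and CpG arrays left out, and 78 of these were called each time. Over all 20 settings run for them, 95 were tested each time and 41 of these called each time. Rnd3, untested without any 1 CpG array, lost its call with no pseudocount and without the labelling term. The genes that changed sign were all uncalled: with quantile normalization S100a8 was 0.0065, with arrays shifted to the same median Ifih1 was -0.13 and Irf4 -0.042, and on the Enzo arrays Ncl was 0.032, S100a8 0.00058, Flt3 0.038 and Myc 0.085. With 1 array left out Eomes ran from -0.78 to 0.26, Tlr9 from -0.33 to 0.30, S100a8 from -0.33 to 0.29, Tnf from -0.51 to 0.27, Ncl from -0.17 to 0.063, Myc from -0.14 to 0.10, Flt3 from -0.31 to 0.067 and Ifih1 from -0.35 to 0.32. The shift to the same median also turned the sign of the list medians of B cell identity, G1, heat shock, quiescence and MHC class II genes. Dim genes, such as Mx2 with PL2-3, have sizes set by the pseudocount.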

Other observations

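The 3 arrays titled as anti-IgM and CpG together entered no comparison, and their treatment field in the labels reads "none", so what these cells received rests on the titles. Their Xist signals were 321 to 589, against 4252 to 15543 on the other 12 arrays, and their 5' to 3' beta-actin ratios were 0.105 to 0.193. The chemokine gene Xcl1 gave 7528, 19325 and 20096 on them. Egr2 gave 24546, 17236 and 23717. The interferon-stimulated gene Ifit1 gave 19355, 3298 and 3435 and the chemokine gene Cxcl10 24746, 6258 and 5464. Jun gave 6528, 10879 and 10079, and Bcl2, an inhibitor of apoptosis, 1606, 1345 and 1035.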
